A study of Rattus norvegicus with 27 samples.

Results

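The enzymes described here serve tryptophan use, nitric oxide and its cofactor, or superoxide removal: Ido1, Kynu, Wars1, Nos2, Gch1 and Sod2. Their messages were measured in cultured rat oligodendrocyte precursor cells (OPCs) kept in PDGF, or given thyroid hormone (T3) with or without interferon-gamma (IFNγ). Members were chosen as every probe set whose platform annotation gives 1 of these 6 symbols and no other. This took 8 probe sets, 2 each for Wars1 and Gch1 and 1 for each other gene, of 20826 probe sets that name a single gene and 14217 genes in all.

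OPCs were isolated from cerebral cortices of rat pups of postnatal days 4 to 6 with magnetic beads against A2B5, a surface ganglioside of glial progenitors, and were expanded in PDGF. The 27 Affymetrix arrays form 9 groups of 3 donors: PDGF at 0 h, then T3+IFNγ and T3 at 8, 24, 48 and 96 h. The paper's methods add T3 and cytokine to OPC medium for differentiation, and neither they nor the labels say whether PDGF was kept. The PDGF cells were taken at 0 h only. T3 and PDGF cultures therefore also differ in time in culture and may differ in PDGF, neither of which can be told apart from T3. The rats were of the SD (Sprague Dawley) stock by the study's methods. The labels do not give their sex and do not say whether a donor is 1 pup or a pool.

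IDO1 opens the tryptophan ring in the first step of the kynurenine pathway, and KYNU, kynureninase, cleaves kynurenines further along it. WARS1 is the cytoplasmic tryptophanyl-tRNA synthetase, which charges tRNA with the same amino acid. NOS2, the inducible nitric oxide synthase, makes nitric oxide from arginine and needs tetrahydrobiopterin, whose synthesis begins with GCH1, GTP cyclohydrolase 1, while SOD2 turns superoxide into hydrogen peroxide in mitochondria. In macrophages and many other cells IFNγ is known to induce IDO1, WARS1, NOS2 and GCH1.

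RefSeq promoters (assembly GRCr8) were given for Wars1, Sod2, Gch1 and Kynu, 4 of the 6 members, as windows of 300 bases that run from 250 bases before to 50 bases after the gene start. The 3 below belong to a gene that was higher with IFNγ at every time, a gene that was higher at 96 h and a gene that was not called with IFNγ at any time. They lie at chr6:133571596-133571895, chr1:50050119-50050418 and chr15:22917363-22917662, all on the minus strand, and capitals mark matches to the NF-kB consensus.
Wars1: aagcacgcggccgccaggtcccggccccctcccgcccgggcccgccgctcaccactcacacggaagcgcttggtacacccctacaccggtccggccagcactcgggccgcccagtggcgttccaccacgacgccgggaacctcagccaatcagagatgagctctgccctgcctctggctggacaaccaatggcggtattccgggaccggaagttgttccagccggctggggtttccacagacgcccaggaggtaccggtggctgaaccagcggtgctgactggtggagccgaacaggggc
Sod2: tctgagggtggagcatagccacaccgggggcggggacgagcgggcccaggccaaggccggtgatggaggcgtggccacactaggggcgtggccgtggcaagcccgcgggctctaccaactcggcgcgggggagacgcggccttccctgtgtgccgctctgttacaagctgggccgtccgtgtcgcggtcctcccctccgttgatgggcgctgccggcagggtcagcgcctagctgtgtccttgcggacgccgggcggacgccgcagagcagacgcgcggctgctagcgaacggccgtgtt
Gch1: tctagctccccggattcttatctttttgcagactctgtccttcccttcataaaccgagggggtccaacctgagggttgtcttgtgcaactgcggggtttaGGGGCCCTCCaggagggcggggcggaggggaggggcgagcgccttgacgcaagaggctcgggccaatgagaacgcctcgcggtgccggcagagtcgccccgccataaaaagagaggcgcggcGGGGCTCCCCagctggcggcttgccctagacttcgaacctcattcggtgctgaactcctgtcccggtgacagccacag
Both strands were searched for the interferon-stimulated response core GAAANNGAAA, found in 3.92% of 33469 such rat windows, and for the NF-kB consensus, found in 7.51%. The Gch1 window held the NF-kB consensus at 2 places, starting at -150 and at -28 from the gene start, and the match at -28 read on both strands. The letters of the response core were not in the windows of Wars1, Sod2, Gch1 or Kynu, which says nothing of sequence outside them. A match is a match of letters only.

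Values are RMA signals on the log2 scale as deposited, so a difference of 1 is a doubling, and levels are compared between groups for the same probe set only. A probe set was called when the limma test, adjusted by Benjamini-Hochberg over all 20826 probe sets, gave an adjusted p under 0.05. With IFNγ, 2 of the 8 member probe sets were called higher at 8, 24 and 48 h. Both belong to Wars1, so these calls stand for a single gene of the 6. The 4 called higher at 96 h were both Wars1 probe sets, Ido1 and Sod2. Over all probe sets, 3.05% were called higher at 8 h, 4.92% at 24 h, 6.34% at 48 h and 6.51% at 96 h. By limma no member was called lower with IFNγ at any time, and none was lower at an unadjusted p under 0.05, a count of 0 of 8 at each time. Over all probe sets, 1.15% were called lower at 8 h, 5.52% at 24 h, 7.47% at 48 h and 5.12% at 96 h. The median change of the 8 probe sets was -0.03, 0.16, 0.17 and 0.52 on the log2 scale at the 4 times, beside -0.04, -0.05, -0.05 and -0.03 over all probe sets. Since the members were picked with earlier results of these data in view, their share of calls beside that of all probe sets is descriptive and not a test. The IFNγ and T3 comparisons use the same T3 arrays.

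**Figure D1:**
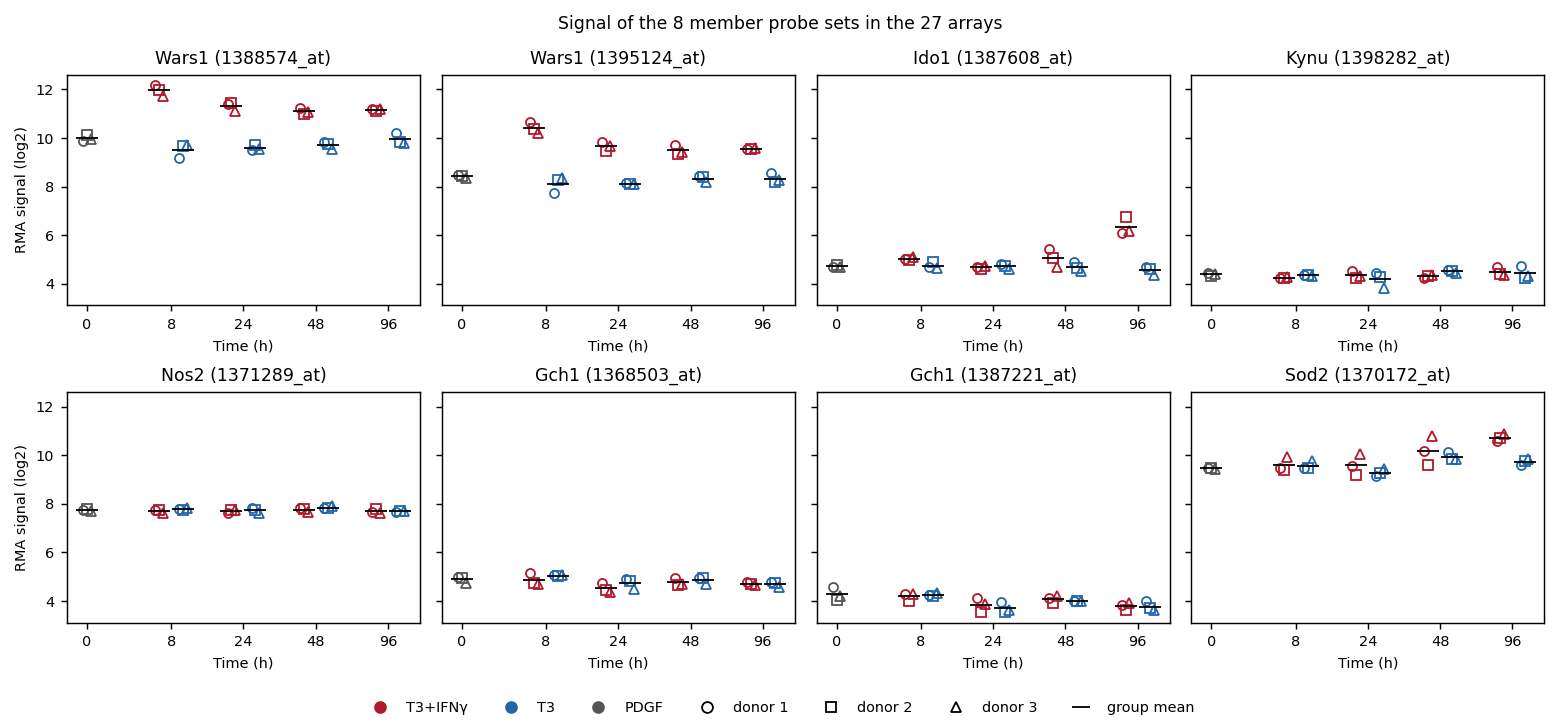
RMA signal (log2, vertical axis) of the 8 member probe sets in each of the 27 arrays, by time in culture (h, evenly spaced, not to scale). PDGF stands at 0 h and T3+IFNγ left of T3 at each time, symbols mark donors and bars group means. Wars1 separates at every time, Ido1 and Sod2 separate fully at 96 h, and Nos2 stays between 7.63 and 7.90 in every array.

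Wars1 was higher with IFNγ at every time and in all 3 donors, by both of its probe sets. At 8 h the signal of 1388574_at was 12.18, 11.99 and 11.73 in donors 1 to 3 with T3+IFNγ, against 9.16, 9.69 and 9.70 with T3. At 24 h it was 11.40, 11.43 and 11.12 with T3+IFNγ, against 9.50, 9.70 and 9.55 with T3. The lowest T3+IFNγ array lay well above the highest T3 array at both times. At 48 h the signal was 11.22, 11.0 and 11.08 with T3+IFNγ, against 9.82, 9.74 and 9.54 with T3. At 96 h it was 11.21, 11.09 and 11.19 with T3+IFNγ, against 10.19, 9.85 and 9.81 with T3. The groups did not overlap here either, and the 3 PDGF arrays, at 9.86, 10.13 and 9.95, lay below every T3+IFNγ array.

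The change of this Wars1 probe set with IFNγ was 2.45 on the log2 scale at 8 h (SE 0.14, limma adjusted p = 9.16e-12), a 5.47-fold difference in signal. It was 1.73 at 24 h (limma adjusted p = 4.23e-09), 1.40 at 48 h (limma adjusted p = 1.54e-07) and 1.21 at 96 h (limma adjusted p = 1.33e-06), or 3.33-fold, 2.64-fold and 2.32-fold. The difference was thus widest at 8 h. The change at 96 h minus that at 8 h was -1.24 (limma adjusted p = 0.000531). An F test over the 4 times gave 14.6 (limma adjusted p = 0.00165).

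The other Wars1 probe set, 1395124_at, followed a similar course, with a Pearson r of 0.99 between the 2 over the 27 arrays, which share groups and donors. At 8 h it read 10.64, 10.38 and 10.20 with T3+IFNγ, against 7.74, 8.27 and 8.33 with T3. At 96 h it read 9.56, 9.54 and 9.60 with T3+IFNγ, against 8.54, 8.17 and 8.27 with T3. Its groups overlapped at none of the 4 times. Its changes were 2.29, 1.54, 1.17 and 1.24 (limma adjusted p = 3.23e-11, 3.34e-08, 2.59e-06 and 9.35e-07). The 96 h change was smaller than the 8 h change by this probe set as well, with a difference of -1.05 (limma adjusted p = 0.00304) and an F of 12.9 over the times (limma adjusted p = 0.00306).

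By 1388574_at, the narrowing lay mostly in the T3+IFNγ mean between 8 and 24 h, and after 48 h in the T3 mean. By 1395124_at it also lay in the T3+IFNγ mean between 8 and 24 h. The change of 1395124_at did not narrow after 48 h (1.17 at 48 h and 1.24 at 96 h). Its T3 mean was 8.33 at 48 h and 8.32 at 96 h. With T3+IFNγ, 1388574_at averaged 11.97 ± 0.23, 11.32 ± 0.17, 11.10 ± 0.11 and 11.16 ± 0.06 from 8 to 96 h (SD, n = 3 each). With T3 it averaged 9.52 ± 0.31, 9.58 ± 0.10, 9.70 ± 0.14 and 9.95 ± 0.21. In T3+IFNγ the 8 h arrays lay above all later ones, while the ranges at 24, 48 and 96 h overlapped.

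Ido1 was called higher with IFNγ at 96 h and at no earlier time. At 96 h its probe set 1387608_at gave 6.09, 6.74 and 6.19 with T3+IFNγ, against 4.69, 4.58 and 4.37 with T3. The change was 1.79 on the log2 scale (SE 0.15, limma adjusted p = 8.27e-09), a 3.46-fold difference, present in 3 of 3 donors. The 3 PDGF arrays gave 4.67, 4.77 and 4.69, inside or just above the range of T3 at 96 h, and donor 2 had the highest T3+IFNγ value.

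At the earlier times Ido1 stayed low. At 8 h it read 5.0, 4.98 and 5.10 with T3+IFNγ, against 4.67, 4.87 and 4.65 with T3, with no overlap but a change of 0.30 (95% interval -0.02 to 0.62, limma adjusted p = 0.426). At 24 h it read 4.68, 4.59 and 4.72 with T3+IFNγ, against 4.81, 4.74 and 4.58 with T3, and the groups overlapped (change -0.04, 95% interval -0.36 to 0.28). At 48 h it read 5.40, 5.04 and 4.68 with T3+IFNγ, against 4.87, 4.62 and 4.53 with T3. Donor 3 with T3+IFNγ lay there within the T3 range, donors 1 and 2 above it, and the change of 0.37 was not called (95% interval 0.05 to 0.69, limma adjusted p = 0.128). The change at 96 h exceeded that at 8 h by 1.49 (SE 0.22, limma adjusted p = 0.000152), and the F over the 4 times was 27.5 (limma adjusted p = 3.25e-05).

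The direction of the difference over time was thus opposite in Ido1 and Wars1. Over all probe sets, 3.51% were called in the test of 96 h against 8 h and 4.73% in the F test, against 3 of the 8 members in each, namely Ido1 and both Wars1 probe sets. Without donor 2, none of the 8 was called in either test. The 96 h minus 8 h differences were then 1.22 for Ido1 (limma adjusted p = 0.0718), -1.33 for 1388574_at (limma adjusted p = 0.0504) and -1.20 for 1395124_at (limma adjusted p = 0.0762). The F values without donor 2 were 12.6, 8.20 and 7.52 in the same order. Without donor 1, the calls held, but the 96 h minus 8 h difference of 1395124_at shrank to -0.63 (limma adjusted p = 0.0319) and the F of 1388574_at to 9.13 (limma adjusted p = 0.0315). Without donor 3, the F test of 1395124_at also missed the threshold (limma adjusted p = 0.0606).

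**Figure D2:**
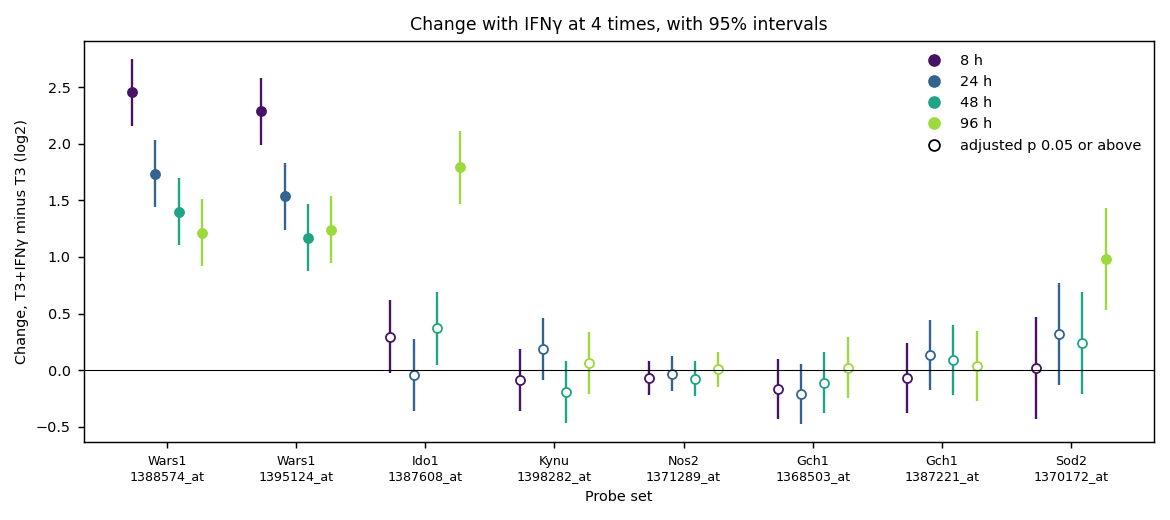
Change with IFNγ (T3+IFNγ minus T3, log2, vertical axis) of the 8 member probe sets at 8, 24, 48 and 96 h, with 95% intervals from the fit over 27 arrays. Filled points were called. The Wars1 difference is widest at 8 h, at 2.45 and 2.29, and Ido1 and Sod2 reach 1.79 and 0.98 at 96 h.

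Sod2 was called higher at 96 h, close to doubling. Its probe set 1370172_at gave 10.58, 10.72 and 10.87 with T3+IFNγ at 96 h, against 9.61, 9.76 and 9.87 with T3. The donors' differences were 0.98, 0.96 and 1.0, with a mean of 0.98 on the log2 scale (SE 0.22, limma adjusted p = 0.00307) or 1.97-fold. The groups did not overlap, and PDGF arrays gave 9.49, 9.47 and 9.45. Without donor 1 the change was 0.98 as before, and its limma adjusted p was 0.0607.

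Before 96 h the Sod2 values of the T3+IFNγ donors spread widely. At 48 h they were 10.17, 9.60 and 10.79, against 10.14, 9.84 and 9.86 with T3, so that donor 2 was lower with IFNγ and donor 3 higher by 0.93. At 24 h they were 9.56, 9.21 and 10.05 with T3+IFNγ, against 9.16, 9.27 and 9.44 with T3. At 8 h they were 9.46, 9.39 and 9.93 with T3+IFNγ, against 9.47, 9.49 and 9.77 with T3. The groups overlapped at these 3 times, with changes of 0.02 at 8 h (95% interval -0.43 to 0.47), 0.32 at 24 h (95% interval -0.13 to 0.77) and 0.24 at 48 h (95% interval -0.21 to 0.69). The change at 96 h exceeded that at 8 h by 0.96, not called (limma adjusted p = 0.0945). With donors as a replicate block this difference was called (limma adjusted p = 0.0177).

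Nos2 did not move. Its probe set 1371289_at stayed between 7.63 and 7.90 over all 27 arrays, and 99.9% of the 20826 probe sets had a wider range. It averaged 7.72 ± 0.08 with T3+IFNγ, against 7.79 ± 0.05 with T3, at 8 h, and 7.70 ± 0.09 with T3+IFNγ, against 7.69 ± 0.02 with T3, at 96 h (SD, n = 3 each). The changes with IFNγ were -0.07, -0.03, -0.08 and 0.01 from 8 to 96 h. The 95% intervals at the 4 times ran from -0.22 to 0.08, -0.18 to 0.12, -0.23 to 0.08 and -0.15 to 0.16. A single probe set this flat gives no sign that it can register the transcript in these cells. An unchanged transcript, at whatever level, and a probe set that does not respond therefore cannot be told apart.

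Kynu and Gch1 were not called with IFNγ at any time. Kynu (1398282_at) lay between 3.82 and 4.74 in all arrays, with changes of -0.09, 0.19, -0.19 and 0.06 from 8 to 96 h and no 95% interval reaching beyond 0.47 in either direction. At 48 h it read 4.24, 4.33 and 4.34 with T3+IFNγ, against 4.55, 4.51 and 4.44 with T3, and at 8 h 4.25, 4.23 and 4.27 with T3+IFNγ, against 4.33, 4.36 and 4.31 with T3. The groups did not overlap at these 2 times, with T3+IFNγ lower, but the differences were within the spread the fit found (limma adjusted p = 0.397 at 48 h and 0.877 at 8 h).

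Gch1 lay between 4.36 and 5.17 by 1368503_at and between 3.53 and 4.58 by 1387221_at. With IFNγ the changes from 8 to 96 h were -0.17, -0.21, -0.11 and 0.02 by the first and -0.07, 0.13, 0.09 and 0.04 by the second. Groups of 1368503_at overlapped at all 4 times, and the 2 probe sets differed in sign at 24 and 48 h, where neither was called. Their Pearson r over the 27 arrays was 0.63. The means of Kynu and of 1387221_at over all arrays lie below 4.51, the level under which probe sets were counted as dim.

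Against PDGF, with T3, 1 of 8 probe sets was called lower at 8 h, 2 at 24 h, 0 at 48 h and 1 at 96 h, while 4.55%, 15.7%, 22.3% and 26.6% of all probe sets were called lower at these times. With T3, 0 of the 8 were called higher by limma at each time, while 5.72%, 15.3%, 16.4% and 22.2% of all probe sets were. At an unadjusted p under 0.05, 0 members were higher at 8, 24 and 96 h, and at 48 h 0 were lower and 1 was higher, Sod2 at 0.47 (95% interval 0.03 to 0.92, limma adjusted p = 0.0901).

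The Wars1 probe set 1388574_at was lower in T3 than in PDGF by 0.47 at 8 h (change -0.47, limma adjusted p = 0.0404) and by 0.40 at 24 h (change -0.40, limma adjusted p = 0.0363). The 8 h call was lost when only T3 and PDGF arrays at 8 h were fitted (limma adjusted p = 0.176) and without any 1 of the 3 donors (limma adjusted p = 0.123, 0.255 and 0.111 without donors 1, 2 and 3). The 24 h call was lost without donor 2 (limma adjusted p = 0.228) or donor 3 (limma adjusted p = 0.151). At 96 h the T3 level was -0.03 from PDGF. The other Wars1 probe set changed by -0.31 at 8 h and -0.30 at 24 h, neither of them called.

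Gch1 by 1387221_at was lower with T3 at 24 h and at 96 h. With T3 it read 3.95, 3.53 and 3.64 at 24 h, then 3.99, 3.69 and 3.61 at 96 h, against 4.58, 4.06 and 4.19 in PDGF. All 6 T3 arrays lay below all 3 PDGF arrays. The changes were -0.57 (limma adjusted p = 0.00481) and -0.51 (limma adjusted p = 0.00654), and both calls were lost without donor 3 (limma adjusted p = 0.0893 and 0.111). By 1368503_at the changes were -0.16 and -0.20, not called.

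Microglia and macrophages make several of these enzymes, so their markers were read in the same arrays. Of 17 markers, 1, 5, 8 and 10 were called higher with IFNγ from 8 to 96 h, beside 3.05%, 4.92%, 6.34% and 6.51% of all probe sets. By limma 0 of these markers were called lower, and their median changes were 0.37, 1.12, 1.89 and 2.21. Their mean signal per array ran from 7.22 to 8.41 with T3+IFNγ and 6.69 to 8.00 with T3 at 8 h, and from 6.81 to 8.45 with T3+IFNγ and 5.20 to 5.62 with T3 at 96 h. These ranges overlapped at 8 h and lay apart at 96 h. At 24 h they were 7.47 to 8.65 with T3+IFNγ and 6.10 to 7.35 with T3, and at 48 h 7.24 to 8.97 with T3+IFNγ and 5.53 to 6.59 with T3. In PDGF the mean ran from 6.59 to 7.76. Against PDGF, T3 had 0, 0, 8 and 15 of the 17 called lower from 8 to 96 h, beside 4.55%, 15.7%, 22.3% and 26.6% of all probe sets. Array signals have no true zero, so none of the markers can be placed at 0. In bulk cultures, fewer cells of a type and less RNA per cell cannot be told apart. Markers of astrocytes and neurons were read in the same way. Of 7 astrocyte markers, 0, 1, 1 and 1 were called higher with IFNγ from 8 to 96 h and 1, 1, 0 and 1 lower. Of 7 neuron markers, 1, 1, 1 and 2 were called higher and 0 lower.

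The markers and the late members ran side by side only in part. At 96 h the mean marker signal with T3+IFNγ was 7.91, 6.81 and 8.45 in donors 1 to 3, so donor 2 was lowest in the markers and highest in Ido1, at 6.74. In PDGF the mean over markers of the log2 signal was 7.35, beside 7.72 in T3+IFNγ at 96 h. The log2 of the summed marker signal ran from 11.43 to 12.55 per array in PDGF. With T3+IFNγ at 96 h it ran from 12.63 to 14.26, so these ranges did not overlap. Ido1 averaged 4.71 ± 0.05 in PDGF and 6.34 ± 0.35 in T3+IFNγ at 96 h (SD, n = 3 each). Sod2 with T3+IFNγ was highest in donor 3 and lowest in donor 2 at 8, 24 and 48 h, as the markers were, and at 96 h its lowest donor was donor 1. The part of microglia in these changes was not tested. The mean of the 5 OPC markers lay between 9.52 and 10.48 in every array, and 0, 1, 1 and 1 of them were called higher with IFNγ, 0 lower. The single marker called was Pdgfra, the PDGF receptor, which averaged 12.27 ± 0.16 with T3+IFNγ and 11.32 ± 0.19 in T3 at 96 h (SD, n = 3 each). Against PDGF, Pdgfra and Cspg4, the NG2 proteoglycan, were called lower with T3 at 96 h (changes -1.43 and -1.91, limma adjusted p = 2.10e-07 and 0.000921). The OPC marker Sox10 was called higher there (change 0.58, limma adjusted p = 0.0209). Olig1 and Olig2 were not called (changes 0.17 and 0.57), so the OPC markers did not move as a set.

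**Figure D3:**
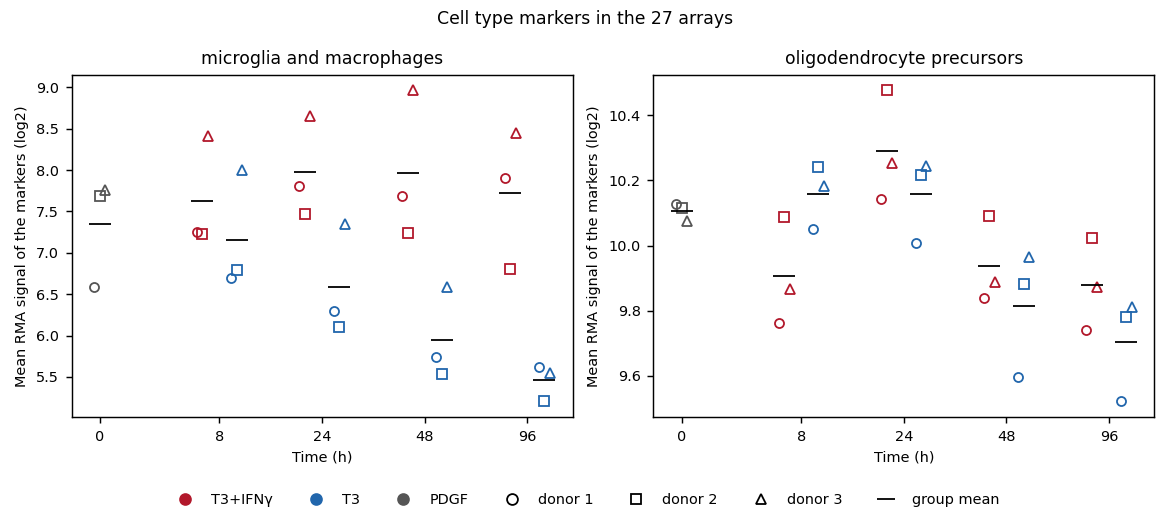
Mean RMA signal (log2, vertical axes, which do not start at 0) of 17 microglia and macrophage markers (left) and 5 OPC markers (right) in each array by time (h, evenly spaced, not to scale), with T3+IFNγ left of T3, symbols for donors and bars for group means. At 96 h the microglial markers run from 6.81 to 8.45 with T3+IFNγ and 5.20 to 5.62 with T3, and the mean of the OPC markers lies between 9.52 and 10.48 over all arrays.

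Other genes of the same pathways were read from lists, each gene by its brightest probe set. From 8 to 96 h with IFNγ, 3.05%, 4.92%, 6.34% and 6.51% of all probe sets were called higher. The shares called lower were 1.15%, 5.52%, 7.47% and 5.12%, and the counts of each list below stand beside these. Of 14 other genes of the kynurenine pathway and tryptophan uptake, 1, 2, 1 and 2 were called higher with IFNγ from 8 to 96 h and 0 lower. Kyat3, a kynurenine aminotransferase, was higher at all 4 times, by 2.65, 3.25, 3.01 and 3.09 (limma adjusted p = 2.80e-07, 6.79e-09, 2.42e-08 and 1.33e-08). It averaged 11.25 ± 0.57 with T3+IFNγ, against 8.60 ± 0.71 with T3, at 8 h (SD, n = 3 each). Its nearest annotated neighbours on 1 side on rat chromosome 2 are pseudogenes of guanylate-binding proteins, Gbp6-ps2 and Gbp1-ps1, and guanylate-binding protein genes are known IFNγ targets. Whether the single Kyat3 probe set reads only Kyat3 was not tested. Nadsyn1, the last enzyme of NAD synthesis, was higher by 0.49 at 96 h (limma adjusted p = 0.0253), and Ahrr, the repressor of the aryl hydrocarbon receptor, by 0.48 at 24 h (limma adjusted p = 0.0465). The median over the list was -0.08, -0.05, 0.06 and 0.05, close to that of all probe sets.

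Among 19 other aminoacyl-tRNA synthetases, 1, 1, 2 and 2 were called higher and 0, 1, 1 and 0 lower with IFNγ. Kars1, the lysyl enzyme, was higher at each time, by 0.60, 0.51, 0.86 and 0.84 (limma adjusted p = 3.38e-07 at 48 h), and Rars1, the arginyl enzyme, by 0.53 at 96 h (limma adjusted p = 0.000186). Farsb, a subunit of the phenylalanyl enzyme, was lower by 0.49 at 24 h (change -0.49, limma adjusted p = 0.0110), and Sars1, the seryl enzyme, by 0.45 at 48 h (change -0.45, limma adjusted p = 0.00243). The median over the list stayed between -0.19 and 0.09, against changes of 1.17 to 2.45 for Wars1. With T3 against PDGF, 5, 13, 9 and 12 of the 19 were called lower and 1, 0, 0 and 1 higher. Over all probe sets, 4.55%, 15.7%, 22.3% and 26.6% were called lower at these times.

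For nitric oxide and arginine, 0, 1, 2 and 5 of 19 other genes were called higher and 0 lower. Slc7a3, a carrier of cationic amino acids, was higher by 1.31, 1.67 and 1.41 at 24, 48 and 96 h (48 h limma adjusted p = 0.000391). Ass1, argininosuccinate synthetase, which recycles citrulline to arginine, was higher by 1.49 at 48 h (limma adjusted p = 0.00288) and 1.40 at 96 h, where it ranged from 4.85 to 6.38 with T3+IFNγ and 4.28 to 4.50 with T3. Asl, the next enzyme of that cycle, picked out after its value was seen, changed by 1.0 at 96 h. Gucy1b1, the beta subunit of the guanylate cyclase that nitric oxide activates, was higher by 1.25 at 96 h (limma adjusted p = 0.000144). The Nos2 signal stayed within 0.27 over all arrays. Since its probe set may not register the transcript, these genes cannot be set against Nos2.

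Of 4 other genes of tetrahydrobiopterin synthesis and recycling, 0, 2, 2 and 0 were called lower with IFNγ and 0 higher. Qdpr, which regenerates the cofactor, was lower by 0.52 at 48 h (change -0.52, limma adjusted p = 0.000108), with 9.99 ± 0.13 in T3+IFNγ and 10.51 ± 0.06 in T3 (SD, n = 3 each). Pcbd2, a pterin dehydratase, was lower by 0.43 at 24 h (change -0.43, limma adjusted p = 0.0482). At 96 h neither was called.

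Of 29 other genes that remove superoxide and peroxides, 0, 1, 1 and 3 were called higher and 0, 2, 2 and 1 lower. Txn1, thioredoxin, was higher by 0.59, 0.54 and 0.52 at 24, 48 and 96 h (24 h limma adjusted p = 1.98e-06). Gpx3, a secreted glutathione peroxidase, was lower at 48 h (change -1.29, limma adjusted p = 0.000309) and higher by 1.02 at 96 h (limma adjusted p = 0.00327). It averaged 6.60 ± 0.29 with T3+IFNγ, against 7.88 ± 0.58 with T3, at 48 h, and 11.06 ± 0.44 with T3+IFNγ, against 10.04 ± 0.10 with T3, at 96 h (SD, n = 3 each). Sod1, the cytosolic dismutase, was higher by 0.27 at 96 h (limma adjusted p = 0.0241), against 0.98 for Sod2. Hmox2, a heme oxygenase, was lower at 96 h (change -0.49, limma adjusted p = 0.00120), and Gss, glutathione synthetase, at 48 h (change -0.42, limma adjusted p = 0.00151).

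Of 8 genes of the NADPH oxidases, which make superoxide, 0, 1, 2 and 2 were called higher and 0 lower. Cybb, the catalytic subunit of the phagocyte enzyme, was higher by 2.50, 3.02 and 3.51 at 24, 48 and 96 h (96 h limma adjusted p = 0.00105), with 5.83 to 8.37 in T3+IFNγ and 3.40 to 3.66 in T3 at 96 h. Cyba, its partner in the membrane, was higher by 1.62 at 48 h (limma adjusted p = 0.0271) and 1.56 at 96 h. Of the 17 microglial markers, 5, 8 and 10 were called higher at the same times, and their part in these changes was not tested.

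**Figure D4:**
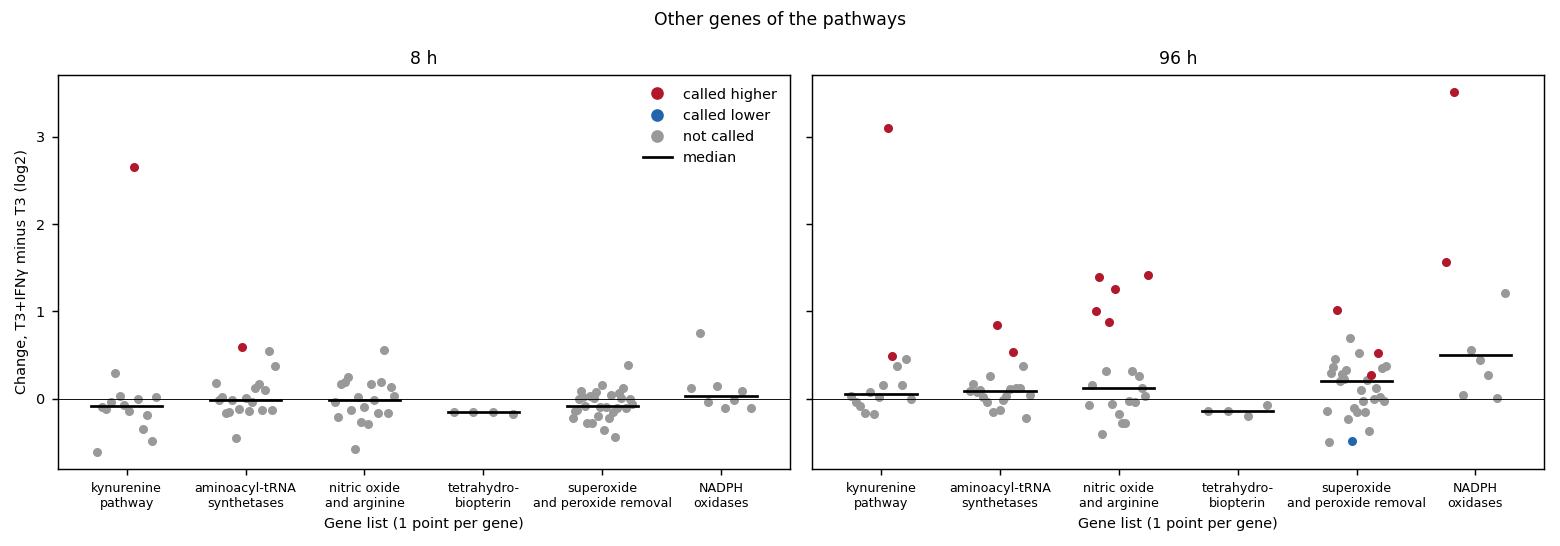
Change with IFNγ (T3+IFNγ minus T3, log2, vertical axis) at 8 h (left) and 96 h (right) of the other genes in 6 pathway lists, 1 point per gene, with bars at list medians. At 8 h the called genes are Kyat3 at 2.65 and Kars1 at 0.60, and at 96 h the highest point is Cybb at 3.51.

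Over the 27 arrays the genes most like Wars1 were Ciita (Pearson r 0.95), the class II transactivator, Hpgd (0.95) and Parp9 (0.95). Those most like Ido1 were Rab37 (0.91), Ppp1r1c (0.91) and Ifit3 (0.90), an interferon-induced gene, and those most like Sod2 were Cd99 (0.86), Tspo (0.86) and Eif6 (0.85). For Gch1 they were Eri2 (0.78), Fkbp1a (0.76) and Bcl2 (0.76), for Kynu Aqp7 (0.78), Aqp9 (0.74) and Kcnh3 (0.71), and for Nos2 Prl8a3 (0.72), Sorbs3 (0.70) and Irs1 (0.70). Ido1 and Sod2 had an r of 0.66 with each other. These values describe arrays that share 9 groups and 3 donors.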

How the data were processed

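Gene expression was measured on 27 Affymetrix rat arrays. The authors deposited log2 signals, for which the submitters' processing notes name RMA (background correction, quantile normalization, probe set summary) and limma, with versions not given in the sources used here. The values run from 2.28 to 14.5 and were used as deposited. Of 31099 probe sets, 57 are controls, 9780 others name no gene and 436 name several, by the platform annotation given with the data. Among the probe sets with several genes, which were left out, 1 names Nos2 together with a pseudogene. Probe sets with a mean under 4.51, the 0.25 quantile, were counted as dim.

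Each of the 20826 probe sets with 1 gene was fitted in limma 3.58.1 (R 4.3.3), all arrays together and each group with its own mean, followed by eBayes and by Benjamini-Hochberg adjustment within a comparison. Python 3.11.15, pandas 2.3.3, NumPy 2.4.6 and matplotlib 3.10.9 made tables and plots. The fit was tested on simulated data drawn without donor effects, which says nothing of error rates when arrays of a donor are alike. Groups and donors came from the labels. Deviations from group means had a median correlation of 0.30 between arrays of the same donor. Between donors it was -0.16, a value tied to the first, since the deviations of the 3 donors in a group sum to 0. Donors were also fitted as a replicate block. The labels name donors, so p-values rest on the spread between donors within a group, pooled over the 9 groups. The main fit did not pair arrays by donor. No 2 arrays were identical (highest correlation 0.997). With 3 arrays in each group, small changes are not resolved.

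Named genes were all member probe sets, up to 3 genes called higher and 3 lower with the largest change in each pathway list, and the 3 genes most correlated with each member. Members and lists were chosen with earlier results of these data known. By Entrez identifier 20758 of the 20826 probe sets were found in GRCr8. The 3 prime minus 5 prime log2 signal of the Gapdh controls was 0.37 and 0.11 in donor 2 with T3+IFNγ at 8 and 24 h, 0.07 in donor 2 with PDGF and below 0 in the other 24 arrays. A further motif searched in the promoters is not reported here.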

Additional observations from a re-analysis of the deposited data

Results flagged for a closer look

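The change with IFNγ differed between times for 2 of the 6 genes, by a test of the difference itself. For Ido1 the change at 96 h minus that at 8 h was 1.49 on the log2 scale, and the F over the 4 times was 27.5. For Wars1 by 1388574_at the difference was -1.24 and the F 14.6, and by 1395124_at the difference was -1.05 and the F 12.9. Ido1 thus had its larger change at the last time and Wars1 at the first. The limma adjusted p-values, and their values without donor 2, are those given with each gene above.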

How the results depend on the processing

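The alternatives were donors as a replicate block, the brightest probe set per gene, all probe sets tested, dim probe sets left out, arrays centred on their medians, only the compared groups fitted, a variance trend, each donor left out, and the 2 donor 2 T3+IFNγ arrays with raised Gapdh 3 prime signal left out. Of 840 values of single probe sets under them, 815 kept their side of the threshold (26 of the 840 changed sign where neither value was called), 9 gained a call, 16 lost one and 0 reversed with a call. With the brightest probe set per gene, 6 probe sets remained and 1 was called with IFNγ at 8, 24 and 48 h, 1 with T3 at 24 h and 0 with T3 at 96 h, since Wars1 then counts once and 1387221_at is left out. Without dim probe sets, 1 was called with T3 at 24 h and 0 at 96 h. With only the compared groups, 0 were called with T3 at 8 h and 1 at 48 h. With the replicate block, 2 were called with T3 at 48 h, Gch1 by 1387221_at (limma adjusted p = 0.0309) and Sod2 (limma adjusted p = 0.0279), and the Sod2 difference between 96 and 8 h was called, and the block changed no other call. Leaving out 1 donor gave 0 to 0 calls with T3 at 8 h, 0 to 3 at 24 h, 0 to 1 at 48 h and 0 to 1 at 96 h, and 0 to 3 for both tests of change over time. The cause of these differences was not tested. With 3 arrays in each group the intervals of uncalled members leave room for changes of up to 0.77 on the log2 scale for Sod2 with IFNγ at 24 h and 0.92 for Sod2 with T3 at 48 h.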
